A study of Arabidopsis thaliana with 18 samples.

Results

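The class III homeodomain leucine zipper (HD-ZIP III) genes and the LITTLE ZIPPER (*ZPR*) genes of *Arabidopsis thaliana* were followed through somatic embryogenesis (SE), the formation of embryos from cultured somatic tissue. The 9 genes were taken by locus code: the 5 HD-ZIP III genes *PHABULOSA* (*PHB*), *PHAVOLUTA* (*PHV*), *REVOLUTA* (*REV*), *ATHB8* and *ATHB15*, and the 4 genes *ZPR1* to *ZPR4*. They are 9 of the 34218 genes in the count table, and all 9 were among the 23539 genes with enough reads to be tested. Immature zygotic embryos (IZEs) of the Columbia-0 genotype at the cotyledonary stage were cultured on 3 media that share the same hormone-free base. ET medium held 1 µM trichostatin A (TSA), an inhibitor of histone deacetylases, EA medium held 5 µM 2,4-dichlorophenoxyacetic acid (2,4-D, a synthetic auxin), and E0 medium held neither, so that the explants on it grew into seedlings. Tissue was taken at 10 d and at 5 d, which gives 6 groups of 3 biological replicates and 18 libraries in all. Each library pooled whole explants, 100 at 10 d and 250 at 5 d. In such bulk samples, a change in the number of cells that express a gene and a change in its RNA per cell cannot be told apart.

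HD-ZIP III proteins are plant transcription factors with a homeodomain, a leucine zipper and a START domain. They specify the upper (adaxial) side of lateral organs, keep the shoot apical meristem active and pattern the vascular tissue, against KANADI proteins on the lower (abaxial) side. Their transcripts are cut under the guidance of the microRNAs miR165 and miR166, and they activate *ZPR* genes, whose small proteins hold a leucine zipper but no DNA-binding domain and pair with HD-ZIP III proteins into inactive dimers.

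The sequence that the 5 HD-ZIP III transcripts share, and by which the microRNAs recognise them, is shown first, since it sets them apart as one regulated family. The 9 microRNA loci in the RefSeq annotation of the TAIR10.1 assembly give 2 mature sequences, 1 from the 2 *MIR165* loci and 1 from the 7 *MIR166* loci. Both carry the same seed, bases 2 to 8, printed in capitals.
miR165: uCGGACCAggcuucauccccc
miR166: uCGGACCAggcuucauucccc

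In each of the 5 HD-ZIP III genes the 21-base target site lies in the coding sequence and spans an exon junction, so that the genomic interval given holds an intron. The 2 capitals mark the only positions at which the 5 sites differ.
PHB (chr2:14642530-14642666, minus strand, coding bases 590 to 610): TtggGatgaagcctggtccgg
PHV (chr1:10799330-10799445, minus strand, coding bases 578 to 598): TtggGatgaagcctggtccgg
REV (chr5:24398787-24398898, plus strand, coding bases 551 to 571): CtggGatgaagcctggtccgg
ATHB8 (chr4:15866872-15866974, minus strand, coding bases 548 to 568): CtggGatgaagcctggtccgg
ATHB15 (chr1:19412976-19413085, minus strand, coding bases 551 to 571): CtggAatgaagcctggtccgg

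*PHB* and *PHV* thus share 1 version of the site, *REV* and *ATHB8* share another, and *ATHB15* has its own. Set against an exact complement, with G-U pairs counted as mismatches, the site has 3 mismatches to miR165 and 4 to miR166 in *PHB*, *PHV*, *REV* and *ATHB8*, and 4 to miR165 and 3 to miR166 in *ATHB15*. The 9 *MIR165* and *MIR166* genes are listed at 0 counts in all 18 libraries. If reads from these loci could be counted at all, 3 counts as the upper limit of a 0 would bound each gene. That bound would be 0.0487 to 0.329 CPM (read counts scaled to library size), depending on the library. Whether they could be counted was not tested: their exons are 105 to 182 bases long, and the annotation release behind the counts is not known here. Neither the precursors nor the mature microRNAs could be compared between media.

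Levels are given in CPM, read counts relative to the TMM-scaled library size, and log2 fold changes with standard errors (SE) and Benjamini-Hochberg adjusted p-values come from edgeR's quasi-likelihood test over all 23539 genes, with 3 libraries per group and a threshold of 0.05. On both inducers most of these genes were higher than on E0. On ET medium at 10 d, 8 of the 9 genes were higher than on E0, against 18% of all tested genes, and none was lower (20% of all). At 5 d, 7 of 9 were higher on ET (background 23.8%) and none was lower (21.5%). On EA medium 8 of 9 were higher than on E0 at both time points, with backgrounds of 24.2% at 10 d and 19% at 5 d, and none was lower (25% and 20.8% of all genes). All 5 HD-ZIP III genes rose in each of these 4 comparisons. Of the *ZPR* genes, *ZPR1* and *ZPR3* rose in all 4, *ZPR4* in 3 and *ZPR2* in none. When calls also had to change at least 2-fold, *REV* (0.885) and *ATHB15* (0.999) were no longer called on ET at 10 d. The same held for *ZPR3* (0.947) on ET at 5 d. Both sets of comparisons use the same E0 libraries, so they are not independent of each other.

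The median log2 fold change of the HD-ZIP III genes was 1.35 at 10 d and 1.48 at 5 d for ET against E0, where the median of all tested genes was 0.01 and 0.07. For EA against E0 it was 2.56 at 10 d and 2.75 at 5 d, with 0.09 and 0.02 over all genes. The medians of the 4 *ZPR* genes were 1.51 and 0.91 for ET against E0 and 2.35 and 1.67 for EA against E0, at 10 d and 5 d in that order. Scaling by library totals alone moved the median of all genes in EA against E0 to 0.23 at 10 d and 0.23 at 5 d, and the called share that was higher at 5 d to 61.53%, against 47.63% with TMM scaling. No called member changed direction under it.

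**Figure D1:**
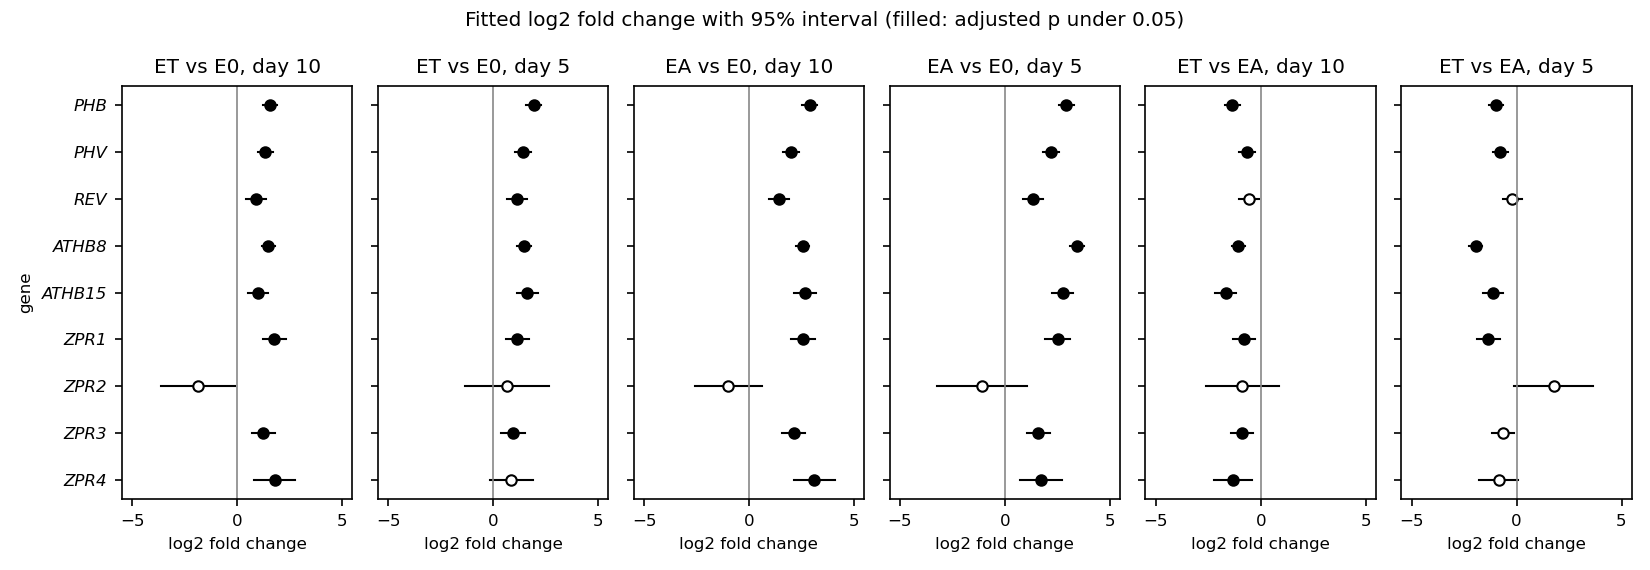
Fitted log2 fold change (horizontal axis) of each of the 9 genes (rows) in 6 comparisons (panels), with lines for the 95% interval and filled points for adjusted p under 0.05. All 5 HD-ZIP III genes lie right of 0 in the 4 panels against E0, and 4 of the 5 lie left of 0 with filled points in both panels of ET against EA, while the open points of *ZPR2* carry the widest intervals.

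*PHB* (AT2G34710, chr2:14639323-14644355, minus strand) was the most abundant of the 9 genes per length of transcript in every group. It promotes adaxial identity and takes part in embryo patterning together with *PHV*. At 10 d it stood at 200.4, 205 and 235 CPM on ET, 511, 529 and 591 CPM on EA and 74.4, 70.0 and 72.6 CPM on E0. At 5 d the values were 196, 152 and 179.6 CPM on ET, 278, 356 and 425 CPM on EA and 49.9, 43.6 and 44.3 CPM on E0. The order of the 6 groups was EA 10d, EA 5d, ET 10d, ET 5d, E0 10d and E0 5d, and no library of any group overlapped with the next. The log2 fold change against E0 was 1.56 ± 0.16 at 10 d (adjusted p = 1.91e-06) and 1.94 ± 0.16 at 5 d (adjusted p = 2.07e-07) on ET. The estimates on EA were 2.91 ± 0.17 at 10 d (adjusted p = 2.9e-09) and 2.94 ± 0.17 at 5 d (adjusted p = 3.73e-09) on EA. *PHB* was therefore about 7.51-fold higher on EA and 2.95-fold higher on ET than on E0 at 10 d.

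*PHV* (AT1G30490, chr1:10796124-10801093, minus strand), the closest relative of *PHB*, followed it at a lower level. At 10 d it was at 93.5, 95.8 and 103 CPM on ET, 140.3, 155 and 165.96 CPM on EA and 41.9, 30.7 and 42.1 CPM on E0. The 5 d libraries were at 79.5, 68.6 and 78.9 CPM on ET, 99.5, 146 and 143 CPM on EA and 32.8, 23.4 and 28.4 CPM on E0. Every ET and EA library lay above every E0 library, while the 2 EA groups overlapped, as did EA 5d with ET 10d and the 2 E0 groups. The log2 fold changes were 1.35 ± 0.17 and 1.42 ± 0.18 for ET against E0, and 2.00 ± 0.18 and 2.20 ± 0.18 for EA against E0 (± SE, at 10 d and 5 d), with a largest adjusted p of 1.66e-05. The 76-base stretches of its exons that also occur elsewhere in the genome make up 0.463% of them, and the other 8 members have none.

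*REV* (AT5G60690, chr5:24396981-24402195, plus strand), which promotes the growth of lateral and floral meristems and acts in stem vasculature, had the lowest fold change of the HD-ZIP III genes in all 4 comparisons with E0. At 10 d its libraries read 74.7, 81.3 and 87.5 CPM on ET, 98.3, 98.1 and 162 CPM on EA and 48.01, 38.3 and 45.6 CPM on E0. At 5 d they read 74.1, 66.5 and 106 CPM on ET, 77.5, 98.5 and 108 CPM on EA and 45.7, 30.7 and 33.6 CPM on E0. All 12 ET and EA libraries lay above all 6 E0 libraries, but the 4 ET and EA groups overlapped with one another in the order of their means. The log2 fold change was 0.88 ± 0.23 at 10 d (adjusted p = 0.0051) and 1.16 ± 0.23 at 5 d (adjusted p = 0.000571) on ET. The estimates on EA were 1.44 ± 0.23 at 10 d (adjusted p = 6.63e-05) and 1.36 ± 0.23 at 5 d (adjusted p = 0.000152) on EA. A gene on the opposite strand covers 1.89% of the exon bases of *REV*, and since the strand setting of the counting is not given in the sources used here, reads in that stretch could belong to either.

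*ATHB8* (AT4G32880, chr4:15863339-15868650, minus strand) is an early mark of procambium, the precursor tissue of the veins, and a direct target of the auxin response factor ARF5. At 10 d it was at 76.6, 101 and 93.8 CPM on ET, 192, 179.6 and 202 CPM on EA and 37.4, 26.9 and 32.8 CPM on E0, and the EA over E0 log2 fold change was 2.56 ± 0.15 (adjusted p = 4.06e-09). At 5 d it was at 46.2, 47.1 and 53.9 CPM on ET, 170.3, 204 and 195 CPM on EA and 18.1, 18.4 and 16.3 CPM on E0, and the EA over E0 log2 fold change was 3.43 ± 0.16 (adjusted p = 3.76e-10), or 10.8-fold, the highest estimate of the 9 genes in that comparison. The 2 EA groups overlapped, and all other neighbours in the order EA, ET 10d, ET 5d, E0 10d and E0 5d were apart. The EA over E0 log2 fold change at 10 d minus that at 5 d was −0.87 ± 0.20 (adjusted p = 0.015), and *ATHB8* was the 1 member of 9 called in that contrast (8.81% of all genes). The ET over E0 log2 fold change was 1.48 ± 0.15 at 10 d and 1.48 ± 0.15 at 5 d, and the difference between the 2 was 0.00 ± 0.21 (adjusted p = 1), with a 95% interval of −0.45 to 0.45.

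*ATHB15* (AT1G52150, chr1:19409688-19414764, minus strand), also named *CORONA*, acts in meristem size and in vascular development. At 10 d it was at 52.0, 55.8 and 66.2 CPM on ET, 189, 131 and 235 CPM on EA and 31.0, 24.8 and 31.2 CPM on E0. Its 5 d libraries were at 55.3, 49.6 and 69.2 CPM on ET, 91.9, 128 and 159.8 CPM on EA and 19.2, 15.4 and 21.8 CPM on E0. The 2 EA groups overlapped and so did the 2 ET groups, while EA, ET and the 2 E0 groups were apart from one another. The log2 fold change against E0 was 0.999 ± 0.23 at 10 d (adjusted p = 0.00245) and 1.63 ± 0.24 at 5 d (adjusted p = 3.54e-05) on ET. On EA it was 2.67 ± 0.24 at 10 d (adjusted p = 2.31e-07) and 2.75 ± 0.24 at 5 d (adjusted p = 2.14e-07). No member was called in the change of the ET effect between days (14.3% of all genes), and the estimate for *ATHB15* was −0.63 ± 0.32 with an interval of −1.31 to 0.06.

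**Figure D2:**
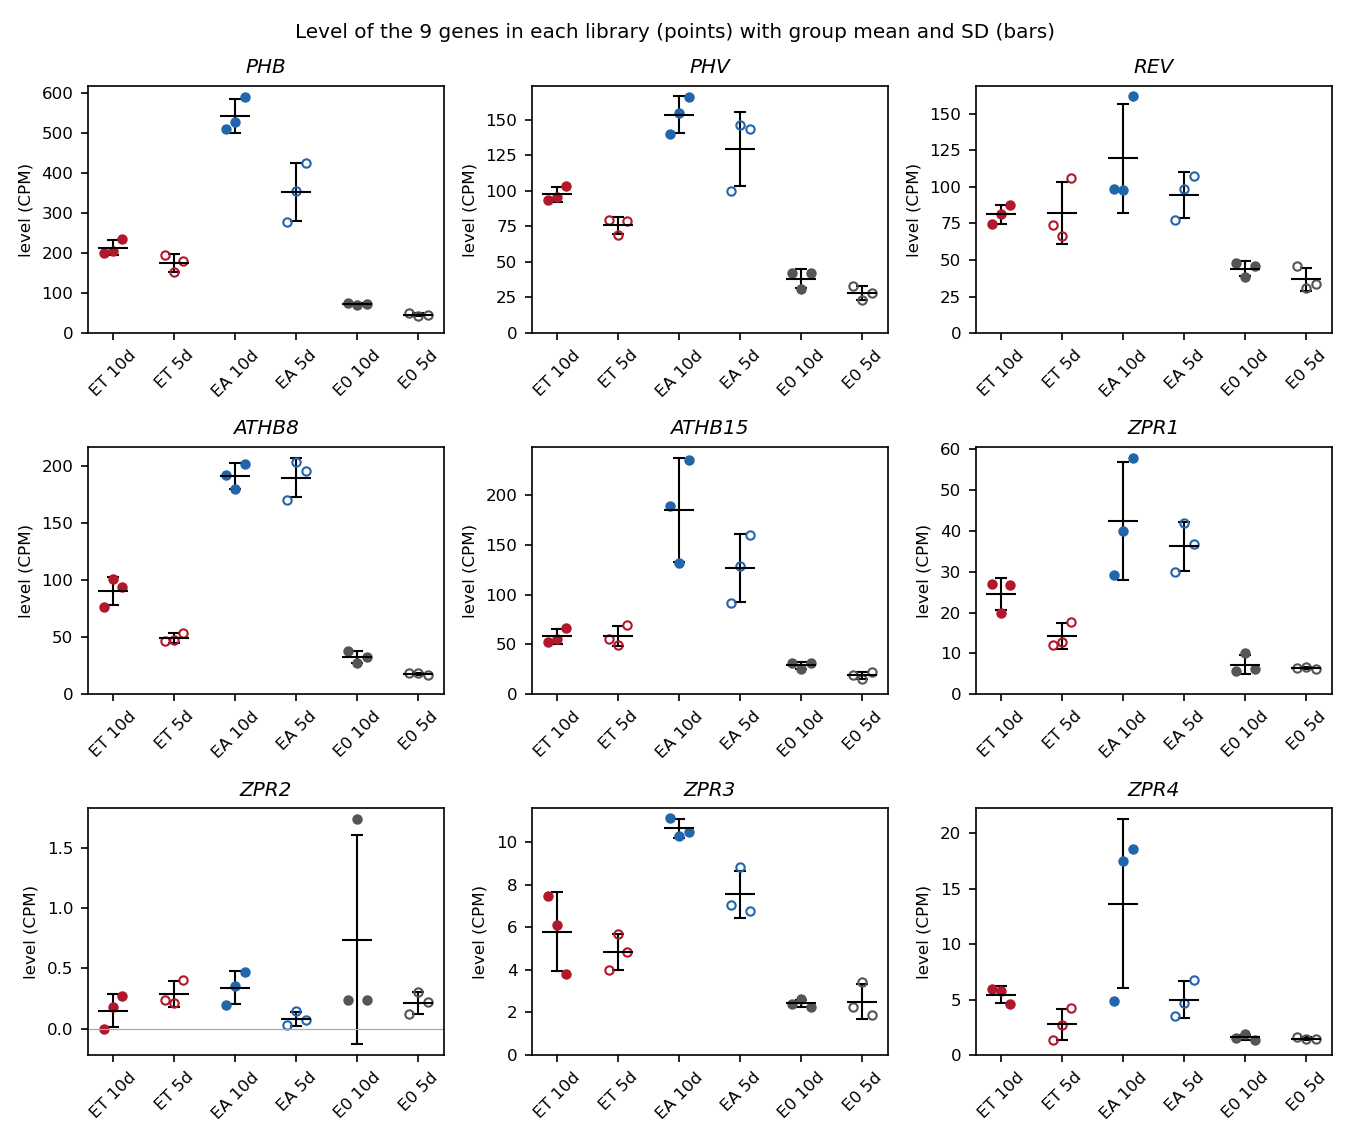
Level in CPM (vertical axis, linear from 0) of each gene in the 18 libraries, with 1 point per library and bars for the group mean and SD of 3 libraries; filled points are 10 d and open points 5 d. For all 5 HD-ZIP III genes every ET and EA library stands above every E0 library, whereas the *ZPR2* libraries all lie under 2 CPM and overlap. The share of all tested genes whose libraries separate in this way was not counted.

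Among the *ZPR* genes, *ZPR1* (AT2G45450, chr2:18733275-18734341, minus strand) was the most abundant per length in each group. At 10 d it had 27.1, 19.9 and 26.7 CPM on ET, 29.2, 40.1 and 57.96 CPM on EA and 5.66, 9.97 and 6.09 CPM on E0. At 5 d it had 12.1, 12.7 and 17.8 CPM on ET, 30.1, 42.0 and 36.8 CPM on EA and 6.32, 6.57 and 6.14 CPM on E0. All ET and EA libraries exceeded all E0 libraries, and only the 2 EA groups and the 2 E0 groups overlapped as neighbours. The log2 fold change against E0 was 1.78 ± 0.26 at 10 d (adjusted p = 5.98e-05) and 1.17 ± 0.27 at 5 d (adjusted p = 0.00197) on ET. The estimates on EA were 2.57 ± 0.27 at 10 d (adjusted p = 1.02e-06) and 2.52 ± 0.27 at 5 d (adjusted p = 1.71e-06) on EA.

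*ZPR3* (AT3G52770, chr3:19557516-19559323, minus strand) and *ZPR4* (AT2G36307, chr2:15218040-15219415, minus strand) are known from double mutants and overexpression lines to restrain HD-ZIP III activity in the shoot meristem. *ZPR3* had 7.48, 6.08 and 3.81 CPM on ET, 11.1, 10.3 and 10.5 CPM on EA and 2.41, 2.61 and 2.26 CPM on E0 at 10 d. Its 5 d values were 4.00, 5.70 and 4.85 CPM on ET, 7.05, 8.82 and 6.77 CPM on EA and 2.23, 3.44 and 1.86 CPM on E0. Every ET and EA library of *ZPR3* lay above every E0 library. Its log2 fold change was 1.24 ± 0.26 at 10 d (adjusted p = 0.00121) and 0.95 ± 0.27 at 5 d (adjusted p = 0.00868) on ET. The estimates on EA were 2.14 ± 0.26 at 10 d (adjusted p = 5.08e-06) and 1.60 ± 0.27 at 5 d (adjusted p = 0.000141) on EA. With the 6 libraries of the compared groups alone in the fit, the ET call at 5 d was lost, at 0.91 with an adjusted p of 0.0526.

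*ZPR4*, which RefSeq annotates as a non-coding RNA gene at this locus, had 5.93, 5.82 and 4.63 CPM on ET, 4.86, 17.5 and 18.6 CPM on EA and 1.53, 1.87 and 1.36 CPM on E0 at 10 d. At 5 d it had 1.36, 2.69 and 4.23 CPM on ET, 3.53, 4.65 and 6.81 CPM on EA and 1.62, 1.42 and 1.43 CPM on E0. EA 10d replicate a stood well under its 2 fellow libraries, and ET 5d replicate a lay under every E0 library of the same day. The rise was called on EA, with 3.12 ± 0.47 at 10 d (adjusted p = 4.06e-05) and 1.73 ± 0.47 at 5 d (adjusted p = 0.00778), and on ET at 10 d, with 1.80 ± 0.46 (adjusted p = 0.00516). On ET at 5 d the log2 difference was 0.87 ± 0.48 (adjusted p = 0.15), with an interval of −0.14 to 1.89, and without ET 5d replicate a it was 1.23 (adjusted p = 0.0479).

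*ZPR2* (AT3G60890, chr3:22496875-22498099, minus strand) was near the limit of detection, with 0 to 26 counts per library. Its values were 0, 0.176 and 0.267 CPM on ET, 0.195, 0.356 and 0.468 CPM on EA and 0.241, 1.74 and 0.238 CPM on E0 at 10 d. At 5 d they were 0.239, 0.215 and 0.407 CPM on ET, 0.0320, 0.145 and 0.0672 CPM on EA and 0.119, 0.303 and 0.219 CPM on E0. Every group overlapped with its neighbours. A count of 3 corresponds to 0.0487 to 0.329 CPM in these libraries, so that differences of *ZPR2* were not resolved at this depth. The 95% interval of its ET over E0 log2 fold change was −3.61 to −0.10 at 10 d (adjusted p = 0.0917) and −1.32 to 2.66 at 5 d (adjusted p = 0.587). That of EA over E0 was −2.57 to 0.61 (adjusted p = 0.294) and −3.23 to 1.04 (adjusted p = 0.418). E0 10d replicate b alone held 26 counts. The ET over E0 difference at 10 d was called lower without E0 10d replicate a, at −2.32 (adjusted p = 0.049), or without E0 10d replicate c, at −2.35 (adjusted p = 0.0449).

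HD-ZIP III proteins bind palindromic sites around an AT-rich core whose central base is usually G or C. To ask whether the *ZPR* promoters hold such letters, TAATNATTA was looked for from 250 bases before to 50 bases after each gene's start, without regard to other motifs. TAATNATTA equals its own reverse complement, so that reading the gene's own strand also covers the opposite strand. Of the 9 members *ZPR4* alone holds it there, and 1110 of 27443 protein-coding genes do (4.04%). The match lies 187 to 179 bases before the annotated start of *ZPR4* and is shown in capitals within its surroundings, read 5′ to 3′ on the minus strand of TAIR10.1.
ZPR4 (chr2:15219574-15219622): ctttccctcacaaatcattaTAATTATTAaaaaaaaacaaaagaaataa

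The central base of this match is T, and the match describes letters only, not binding. *ZPR1* and *ZPR3*, which rose in all 4 comparisons with E0, hold no such letters in the same window.

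The comparison of ET with EA asked how far the 2 embryogenic cultures differed in these genes, and most of them were lower on ET than on EA. No member was higher on ET than on EA, where 17.6% of all genes were higher at 10 d and 20.1% at 5 d. At 10 d 7 of 9 members were lower on ET (14.4% of all genes), and at 5 d 5 of 9 (16.4% of all genes). Scaled by library totals alone, 38.21% of the called genes were higher on ET at 10 d and 35.88% at 5 d, against 55.03% and 55.01% with TMM scaling, and all members called here stayed lower. *PHB*, *PHV*, *ATHB8* and *ATHB15* were lower on ET at both time points. The log2 difference was −1.35 ± 0.16 at 10 d (adjusted p = 9.56e-06) and −1.01 ± 0.16 at 5 d (adjusted p = 0.000126) for *PHB*. For *ATHB15* it was −1.67 ± 0.23 at 10 d (adjusted p = 4.75e-05) and −1.13 ± 0.23 at 5 d (adjusted p = 0.00117). *ATHB15* was thus more than 2-fold lower on ET than on EA on each day. For *ATHB8* it was −1.08 ± 0.14 at 10 d (adjusted p = 3.39e-05) and −1.95 ± 0.15 at 5 d (adjusted p = 1.19e-07), the largest fitted difference of any member. *PHV* had the smallest difference of these 4 genes, at −0.65 ± 0.17 at 10 d (adjusted p = 0.00797) and −0.78 ± 0.17 at 5 d (adjusted p = 0.0022).

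*REV* was the HD-ZIP III gene without a call between the inducers: the log2 difference was −0.56 ± 0.22 at 10 d (adjusted p = 0.0672), with an interval of −1.03 to −0.08, and −0.20 ± 0.22 at 5 d (adjusted p = 0.51), with an interval of −0.67 to 0.27. The 10 d difference was called without EA 10d replicate a, at −0.68 (adjusted p = 0.0415), without EA 10d replicate b, at −0.68 (adjusted p = 0.0432), and without ET 5d replicate c, at −0.56 (adjusted p = 0.0433). With library totals it was called too, at −0.72 (adjusted p = 0.0131). Each test of *REV* against E0 stayed called in all these settings.

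*ZPR1* was lower on ET than on EA, at −0.79 ± 0.25 at 10 d (adjusted p = 0.0248) and −1.35 ± 0.26 at 5 d (adjusted p = 0.000676). The 10 d call was lost without EA 10d replicate c, at −0.50 (adjusted p = 0.146), and without ET 10d replicate b, at −0.66 (adjusted p = 0.106). *ZPR3* was lower at 10 d, at −0.90 ± 0.25 (adjusted p = 0.0118), but not without ET 10d replicate c, at −0.68 (adjusted p = 0.055). Its 5 d difference was −0.65 ± 0.25 (adjusted p = 0.0525), and it was called without E0 5d replicate b, ET 5d replicate b, ET 10d replicate a or ET 10d replicate c, at −0.77 to −0.65 with adjusted p between 0.0204 and 0.0466. With all libraries kept it was also called with DESeq2's size factors, library totals, both DESeq2 tests and organelle genes left out, at −0.91 to −0.68 with adjusted p between 0.00833 and 0.0467. *ZPR4* was lower on ET at 10 d, at −1.33 ± 0.43 (adjusted p = 0.0275). The 10 d calls of these *ZPR* genes were near the threshold, and that of *ZPR4* was lost when EA 10d replicate b or c or any of the 3 ET 10d libraries was left out, at −1.39 to −1.04 with adjusted p between 0.0591 and 0.11. With the compared groups alone the 10 d calls of *ZPR1*, *ZPR3* and *ZPR4* were lost as well, at −0.79, −0.89 and −1.33 with adjusted p of 0.0756, 0.0527 and 0.0792. At 5 d *ZPR4* differed by −0.86 ± 0.44 (adjusted p = 0.14), and it was called without ET 5d replicate c, at −1.40 (adjusted p = 0.0429), and with library totals, at −1.17 (adjusted p = 0.0386). For *ZPR2* the difference was −0.87 ± 0.81 at 10 d (adjusted p = 0.435) and 1.76 ± 0.88 at 5 d (adjusted p = 0.13).

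Between the time points few of these genes differed. In each medium 2 of 9 members were higher at 10 d than at 5 d and none was lower. Of all genes, 12% were higher and 8.53% lower on ET, 7.85% and 5.2% on EA, and 10.4% and 7.1% on E0. *ATHB8* rose with time on ET, by 0.88 ± 0.14 (adjusted p = 0.000575), and on E0, by 0.88 ± 0.15 (adjusted p = 0.000745). On EA the difference was 0.01 ± 0.14 (adjusted p = 0.975), with an interval of −0.29 to 0.31. *PHB* rose with time on E0, by 0.65 ± 0.16 (adjusted p = 0.00884), and on EA, by 0.62 ± 0.16 (adjusted p = 0.0146). The EA call was lost without EA 5d replicate a, at 0.48 (adjusted p = 0.0873), and without EA 10d replicate c, at 0.56 (adjusted p = 0.0555).

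Of the *ZPR* genes, *ZPR1* was higher at 10 d on ET, by 0.78 ± 0.26 (adjusted p = 0.0392), but not without ET 5d replicate a or b or ET 10d replicate a or c, where the values ran between 0.68 and 0.73 with adjusted p between 0.1 and 0.122. *ZPR4* was higher at 10 d on EA, by 1.45 ± 0.43 (adjusted p = 0.0357), but not without EA 5d replicate a or b or EA 10d replicate b or c, at 1.16 to 1.40 with adjusted p between 0.0998 and 0.148. Without EA 10d replicate a, *ZPR4* was called in the change of the EA effect between days, at 1.80 (adjusted p = 0.0354), against 1.39 ± 0.65 (adjusted p = 0.207) with all libraries. Without the same library it was called between days on ET, at 0.98 (adjusted p = 0.0473), against 0.98 ± 0.45 (adjusted p = 0.132) with all libraries. *PHV* on E0 was called higher at 10 d without E0 10d replicate b, at 0.58 (adjusted p = 0.0418), against 0.44 ± 0.17 (adjusted p = 0.0922) with all libraries. The log2 difference of *ATHB15* between days was 0.63 ± 0.23 (adjusted p = 0.0722) on E0 and 0.55 ± 0.23 (adjusted p = 0.128) on EA. On E0 it was called with DESeq2's Wald test (0.65, adjusted p = 0.0424), with the compared groups alone (0.62, adjusted p = 0.0214) and without EA 10d replicate b, at 0.63 (adjusted p = 0.0479), and on EA it was called without that library, at 0.75 (adjusted p = 0.0394).

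To compare the genes with one another, CPM was divided by the exon length of each gene in kb. *PHB* averaged 67.9 ± 5.92 CPM per kb on ET, 173 ± 13.4 on EA and 23.0 ± 0.697 on E0 at 10 d (SD, n = 3 each). *ATHB8* averaged 28.6 ± 3.91, 60.5 ± 3.54 and 10.2 ± 1.66 CPM per kb on ET, EA and E0 at 10 d. *REV* averaged 22.9 ± 1.82, 33.7 ± 10.5 and 12.4 ± 1.43 CPM per kb. *ZPR1* averaged 25.4 ± 4.16, 43.9 ± 15.01 and 7.49 ± 2.46 CPM per kb on the same media, with SDs that overlapped those of *REV* on ET and EA, while *ZPR3* averaged 5.77 ± 1.85, 10.6 ± 0.432 and 2.42 ± 0.176.

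The summed level of the 5 HD-ZIP III genes was 154 to 181 CPM per kb in the ET libraries, 339 to 416 in the EA libraries and 58.4 to 71.2 in the E0 libraries at 10 d. At 5 d it was 118 to 149 on ET, 222 to 318 on EA and 40.2 to 50.4 on E0. The sums of the 3 media did not overlap at either time point. The 4 *ZPR* genes summed to 35.1 to 43.9 CPM per kb on ET, 48.4 to 97.2 on EA and 10.7 to 17.3 on E0 at 10 d. At 5 d they summed to 18.7 to 29.6 on ET, 43.1 to 58.9 on EA and 10.4 to 12.5 on E0. The *ZPR* sum per HD-ZIP III sum was 0.211 to 0.286 on ET, 0.139 to 0.233 on EA and 0.150 to 0.296 on E0 at 10 d. At 5 d it was 0.135 to 0.199 on ET, 0.172 to 0.204 on EA and 0.221 to 0.312 on E0. These ratios are descriptions and were not tested. The ranges overlapped between the media at 10 d, while at 5 d the ET and EA ranges overlapped and both lay under that of E0.

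The make-up of the HD-ZIP III level also differed between media. *PHB* made up 39.2 to 41.4% of the sum on ET, 45.1 to 49.5% on EA and 33.2 to 38.1% on E0 at 10 d. At 5 d its share was 38.4 to 44.8% on ET, 39.3 to 42.5% on EA and 31.4 to 34.5% on E0. *REV* made up 13.7 to 13.8% on ET, 7.96 to 11.003% on EA and 18.5 to 19.0% on E0 at 10 d. At 5 d its share was 15.1 to 20.1% on ET, 9.56 to 9.86% on EA and 21.5 to 25.6% on E0. The share of *REV* was thus lower in every ET and EA library than in every E0 library of the same day, and that of *PHB* higher, although both genes rose. *ATHB8* held 19.4 to 24.3% on EA at 5 d, against 11.4 to 14.5% on E0, and at 10 d the 2 overlapped, at 15.3 to 17.4% on EA and 14.6 to 16.6% on E0.

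**Figure D3:**
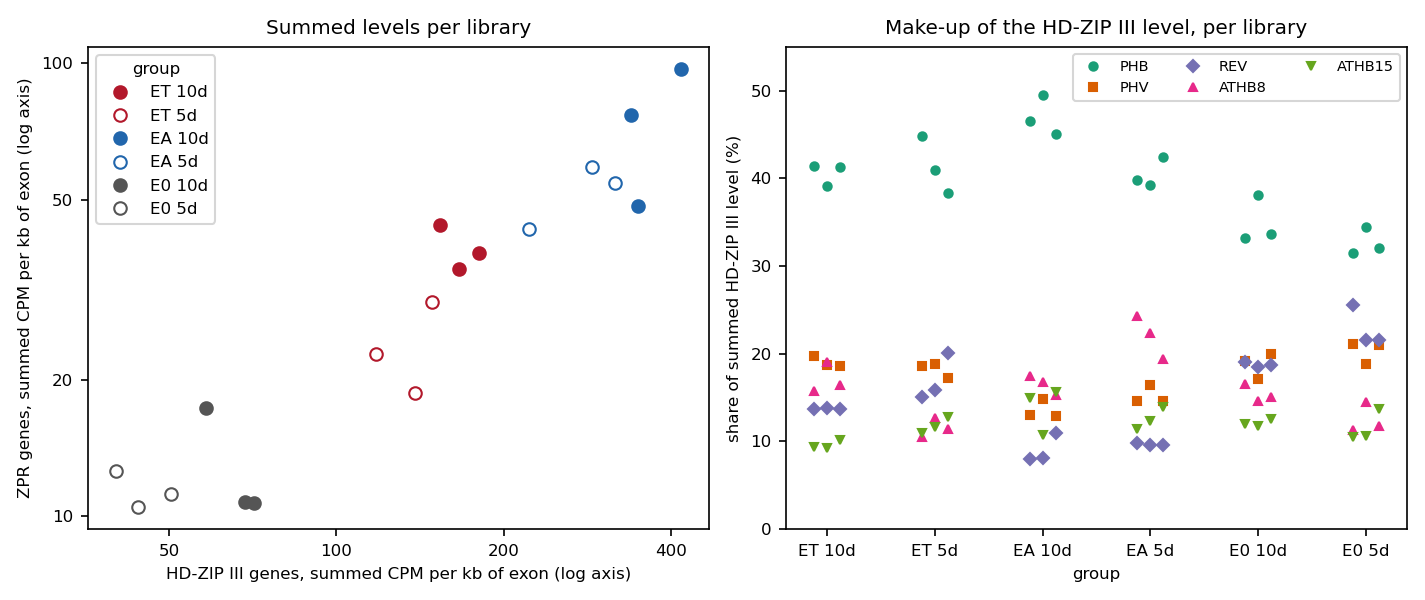
Left, summed CPM per kb of exon of the 4 *ZPR* genes (vertical log axis) against that of the 5 HD-ZIP III genes (horizontal log axis), 1 point per library in the colour of its medium, filled for 10 d and open for 5 d. Right, percent share of each HD-ZIP III gene in the HD-ZIP III sum, 1 point per library: *PHB* is the largest share in all 18 libraries and *REV* the smallest in all 6 EA libraries.

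The genes whose 6 group means on the log2 scale were closest to those of *PHB*, after each gene was centred on its own mean, among 7295 tested genes with a symbol and at least 5 CPM on average, were *Fes1B* with a root-mean-square difference of 0.17, *WOX5* with 0.25 and *TMO6* with 0.26. Fes1B is a co-chaperone of Hsp70, WOX5 a homeodomain factor of the root quiescent centre, and TMO6 a DOF-type transcription factor downstream of ARF5. The candidates closest to *ZPR1* were *UGT76C2*, a cytokinin glucosyltransferase, with 0.11, *CRN*, a membrane kinase-like protein of the CLAVATA pathway, with 0.15, and *ATLP-1*, a thaumatin-like protein, with 0.15. The measure rests on 6 groups and was not tested.

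Argonaute proteins carry the microRNAs that cut HD-ZIP III transcripts: AGO1 forms the cutting complex, and AGO10 binds miR165 and miR166 and keeps them from it. *AGO10* rose in all 4 comparisons with E0, by 1.51 ± 0.18 at 10 d (adjusted p = 8.91e-06) and 1.02 ± 0.18 at 5 d (adjusted p = 0.000239) on ET. On EA it rose by 1.99 ± 0.19 at 10 d (adjusted p = 3.24e-07) and 1.91 ± 0.19 at 5 d (adjusted p = 5.24e-07). *AGO1* rose by 0.80 ± 0.17 at 10 d (adjusted p = 0.00169) and 0.79 ± 0.17 at 5 d (adjusted p = 0.0015) on ET. On EA it rose by 0.60 ± 0.17 at 10 d (adjusted p = 0.00921), while the difference at 5 d was 0.19 ± 0.17 (adjusted p = 0.41). Between the inducers *AGO1* was higher on ET at 5 d, at 0.60 ± 0.17 (adjusted p = 0.0131), and at 10 d the difference was 0.20 ± 0.17 (adjusted p = 0.401). *AGO10* was lower on ET at 5 d, at −0.89 ± 0.18 (adjusted p = 0.00111), and at 10 d the difference was −0.48 ± 0.18 (adjusted p = 0.0508).

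HD-ZIP III proteins activate several HD-ZIP II genes, which act with them in adaxial patterning. Of the 10 HD-ZIP II genes, 8 were higher and none lower on ET than on E0 at 10 d and 5 were higher and 1 lower at 5 d. The shares of all genes for ET were 18% higher and 20% lower at 10 d and 23.8% higher and 21.5% lower at 5 d. On EA 5 were higher and 2 lower at 10 d and 3 were higher and 2 lower at 5 d. The shares of all genes for EA were 24.2% higher and 25% lower at 10 d and 19% higher and 20.8% lower at 5 d. *ATHB17* rose on EA by 2.59 ± 0.33 at 10 d (adjusted p = 9.1e-06) and 4.85 ± 0.38 at 5 d (adjusted p = 6.9e-08), and *HAT2*, an auxin-responsive member, by 2.71 and 1.28 on ET and 2.04 and 1.57 on EA at 10 d and 5 d. *HAT1* fell on ET at 5 d, at −2.10 ± 0.22 (adjusted p = 1.67e-06), and *ATHB4* rose on ET at 10 d, at 1.63 ± 0.22 (adjusted p = 2.45e-05). The median log2 fold change of the 10 genes was 1.25 at 10 d and 0.80 at 5 d on ET, and 0.46 and 0.07 on EA.

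Of 6 further genes reported as HD-ZIP III targets in *Arabidopsis*, 3 were higher and 2 lower on ET than on E0 at 10 d and 3 were higher and 3 lower at 5 d. The shares of all genes for ET were 18% higher and 20% lower at 10 d and 23.8% higher and 21.5% lower at 5 d. On EA 3 were higher and 3 lower at 10 d and 2 were higher and 3 lower at 5 d, against 24.2% and 25% of all genes at 10 d and 19% and 20.8% at 5 d. The auxin influx carrier gene *LAX2* rose by 1.32 and 1.17 on ET and by 4.01 and 4.50 on EA (10 d and 5 d, largest adjusted p 0.000323). *LEC2*, a B3-domain regulator of embryo identity, rose by 4.90 and 4.14 on ET and by 3.95 and 3.55 on EA. In the other direction, the influx carrier gene *LAX3* had log2 fold changes of −4.02 and −5.64 on ET and −1.82 and −7.39 on EA. The cytokinin synthesis gene *IPT7* had −2.70 and −2.77 on ET and −5.31 and −2.75 on EA. All of these values were called lower. *DRN* and *DRNL* encode AP2-type factors that bind HD-ZIP III proteins in the embryo. *DRN* rose in all 4 comparisons with E0, by 1.57 to 3.37, and *DRNL* in 3 of 4, with 0.25 ± 0.39 (adjusted p = 0.622) on ET at 5 d. The shares of all genes above apply to these calls as well. Both genes were low: together they summed to 0.402 to 0.563 CPM on E0 at 10 d and 0.809 to 1.05 CPM at 5 d. In no library did the sum exceed 7.19 CPM, and a count of 3 corresponds to up to 0.329 CPM, so the sizes of these rises are uncertain.

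KANADI proteins and the auxin response factors ARF3 and ARF4 specify the abaxial side, opposite to HD-ZIP III proteins. Among the 4 *KANADI* genes with *ARF3* and *ARF4*, 4 were higher and none lower on ET than on E0 at 10 d and 3 were higher and none lower at 5 d. On EA 2 were higher and 3 lower at 10 d and 2 were higher and 2 lower at 5 d. Of all genes, 18% were higher and 20% lower on ET than on E0 at 10 d, and 23.8% and 21.5% at 5 d. On EA the shares were 24.2% and 25% at 10 d, and 19% and 20.8% at 5 d. The same shares apply to the lists that follow. Between the inducers 5 of these 6 were higher on ET than on EA at both time points, where no HD-ZIP III gene was. Of all genes 17.6% were higher there at 10 d and 20.1% at 5 d. This direction was not particular to the abaxial genes. Of the 10 HD-ZIP II genes 7 were higher and 2 lower on ET than on EA at 10 d, and 4 and 2 at 5 d. Of the 6 further reported HD-ZIP III targets 4 were higher and 2 lower at 10 d, and 1 and 1 at 5 d. *KAN1* fell on EA, with −1.61 ± 0.27 at 10 d (adjusted p = 0.000129) and −1.30 ± 0.27 at 5 d (adjusted p = 0.00105), and so did *KAN4*, at −1.23 and −1.57. Genes on the opposite strand cover 19.3% of the exon bases of *KAN1*, and as for *REV*, reads in that stretch could belong to either strand. *KAN3* rose on ET, by 1.27 ± 0.39 at 10 d (adjusted p = 0.0174) and 2.75 ± 0.44 at 5 d (adjusted p = 8.54e-05), and fell on EA at 10 d, at −2.41 ± 0.43 (adjusted p = 0.00019). *ARF4* rose by 1.07 and 1.18 on ET and by 0.68 and 0.78 on EA.

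Of the 6 *YABBY* genes, which mark the abaxial side and lateral organs, 4 were tested, of which 3 were higher and none lower on ET than on E0 at 10 d, 2 were higher and none lower at 5 d. On EA none was higher and 1 was lower at 10 d and none was higher or lower at 5 d. Between the inducers 4 of the 4 tested were higher on ET than on EA at 10 d and 2 at 5 d, and none was lower. *YAB5* rose on ET by 1.80 ± 0.19 at 10 d (adjusted p = 3.1e-06) and 0.99 at 5 d, and *YAB2* by 1.27 and 1.22. *YAB1* rose on ET at 10 d, by 0.96 ± 0.21 (adjusted p = 0.00201), and *YAB3* fell on EA at 10 d, at −1.12 ± 0.22 (adjusted p = 0.000477). Of the adaxial factors *AS1* and *AS2*, *AS2* rose on EA by 1.91 ± 0.26 at 10 d (adjusted p = 1.65e-05) and 1.62 ± 0.26 at 5 d (adjusted p = 0.000115). On ET it rose at 5 d by 0.96 ± 0.26 (adjusted p = 0.00695), and *AS1* rose on ET at 10 d by 1.16 ± 0.33 (adjusted p = 0.0103). A gene on the opposite strand covers 17.2% of the exon bases of *AS1*, with the same limit as for *KAN1*.

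Since HD-ZIP III genes are also expressed in procambium and xylem, vascular genes were set beside them. Of 8 regulators of procambium and xylem, 5 were higher and none lower on ET than on E0 at 10 d and 7 were higher and none lower at 5 d. On EA 4 were higher and 1 lower at 10 d and 6 were higher and none lower at 5 d. *ARF5*, the auxin response factor upstream of *ATHB8*, rose by 1.41 ± 0.16 at 10 d (adjusted p = 4.46e-06) and 1.90 ± 0.16 at 5 d (adjusted p = 2.27e-07) on ET. On EA it rose by 3.76 ± 0.17 at 10 d (adjusted p = 2.84e-10) and 4.05 ± 0.17 at 5 d (adjusted p = 1.7e-10). The receptor kinase gene *PXY*, the homeobox gene *WOX4* and the bHLH gene *LHW* rose in all 4 comparisons. Their log2 fold changes on EA at 5 d, where *ATHB8* was furthest above E0, were 2.89, 2.46 and 1.04.

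Genes of differentiated xylem were lower on both inducers. Of 6 xylem markers, secondary wall cellulose synthases, xylem proteases and a laccase, none was higher and 5 were lower on ET than on E0 at 10 d and 4 at 5 d, and all 6 were lower on EA at both time points. *XCP1*, a cysteine protease of vessel cells, had −1.50 ± 0.25 at 10 d (adjusted p = 0.000121) and −2.69 ± 0.27 at 5 d (adjusted p = 7.89e-07) on EA. On the same days *CESA4* had −1.62 and −2.35, *LAC4* −2.29 and −2.84, and *XCP2* −0.92 and −2.18. The 6 markers summed to 41.0 to 57.3 CPM on ET, 41.3 to 46.3 on EA and 86.3 to 132 on E0 at 10 d. At 5 d they summed to 36.3 to 45.8 CPM on ET, 12.8 to 17.2 on EA and 52.5 to 63.5 on E0. The part of tissue make-up in the rise of the HD-ZIP III genes was not tested.

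**Figure D4:**
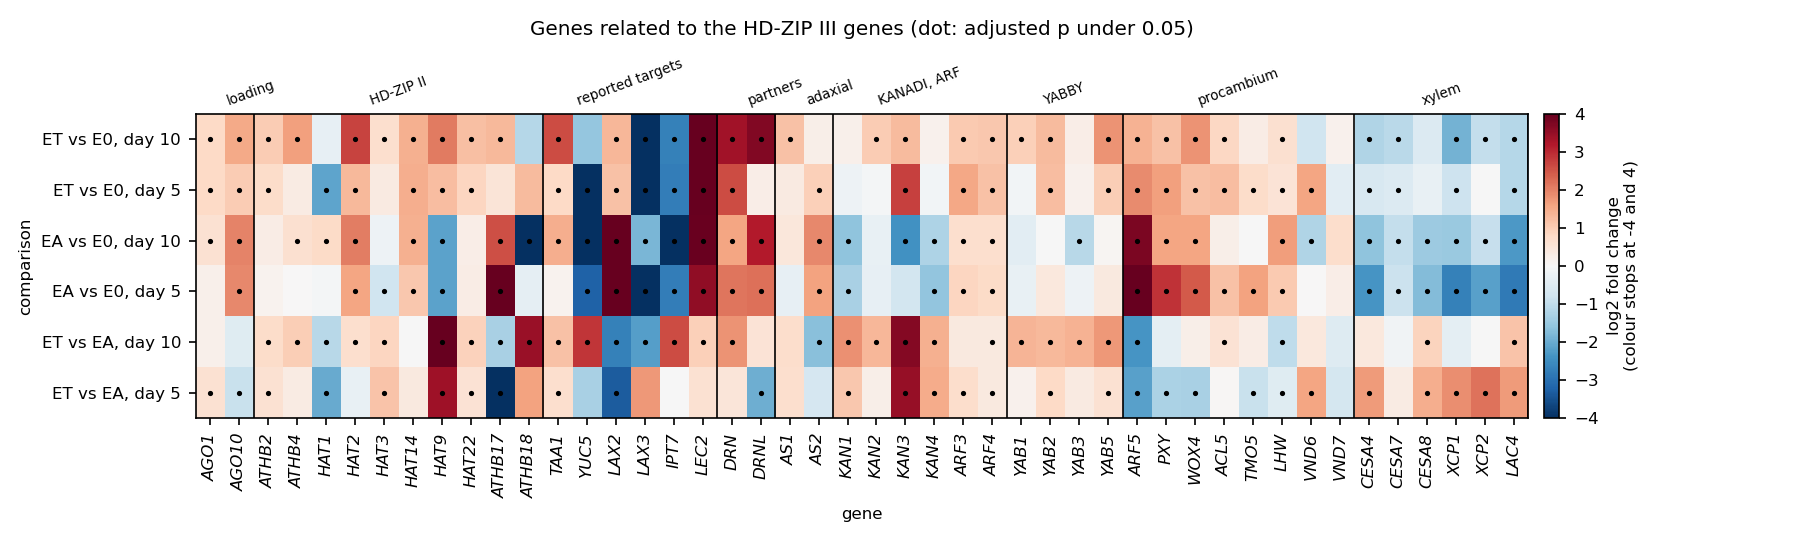
Log2 fold change (colour, red higher and blue lower in the group named first, stopping at −4 and 4) of genes related to the HD-ZIP III genes (columns, by list) in 6 comparisons (rows), with a dot where the adjusted p was under 0.05. *AGO10* and *ARF5* are red in all 4 rows against E0, the 6 xylem markers are blue or pale there, and the *KANADI* genes are red or pale in both rows of ET against EA.

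Library totals ran between 9098758 and 58364735 counts. The 4 seed coat markers summed to at most 0.910 CPM in any library. The 6 endosperm markers summed to 5.86 to 7.12 CPM on ET, 0.796 to 1.27 on EA and 1.205 to 2.15 on E0 at 10 d, and at 5 d to 0.753 to 2.01 CPM on ET, 0.996 to 1.57 on EA and 0.809 to 1.54 on E0. Of these 6, *FIS2*, *PHE1* and *FWA* had no more than 7 counts in any library. *ZOU* was higher on ET than on E0 on both days, with 6.33 ± 0.74 at 10 d, *MEA* was lower on ET and on EA on both days, with −4.05 ± 0.89 and −3.21 ± 0.70 at 10 d, and *AGL62* was not called. Of 4 regulators that mark embryo identity, 4 were higher and none lower on ET than on E0 at 10 d and 3 were higher and 1 lower at 5 d. On EA 4 were higher and none lower at 10 d and 2 were higher and none lower at 5 d. *LEC1* rose by 6.03 ± 0.63 (adjusted p = 2.37e-06) on ET and 4.58 ± 0.61 (adjusted p = 1.3e-05) on EA at 10 d. Of 3 phloem markers, 1 was higher and none lower on ET than on E0 at 10 d and 1 was higher and 1 lower at 5 d. On EA none was higher and 3 were lower at 10 d and none was higher or lower at 5 d. Of 4 markers of green tissue, none was higher or lower on ET than on E0 at 10 d and 2 were higher and none lower at 5 d, where their sum was 1721 to 4624 CPM on ET and 1017 to 1286 CPM on E0. On EA none was higher and 2 were lower at 10 d and 1 was higher and none lower at 5 d. The part of these markers in the changes of the 9 genes was not tested.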

How the data were processed

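RNA was measured in 18 libraries of cultured explants, 3 biological replicates for each of 6 groups of medium and day. The authors deposited whole-number counts of uniquely mapped read pairs per gene, made from ribosomal-RNA-depleted paired-end libraries with rRNA reads removed by SortMeRNA, trimming by Sickle and alignment to TAIR10 with STAR. The strand setting of the counting and the annotation release are not given in the sources used here. The table holds no columns of other samples.

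From these counts, edgeR 4.0.16 (R 4.3.3, limma 3.58.1) fitted 1 mean per group over all 18 libraries, with TMM scaling, filterByExpr and the quasi-likelihood test, and Benjamini-Hochberg adjustment over 23539 genes within each of 11 contrasts, called at 0.05. The script was tested on simulated data with the same replicate spread for every gene, which checks the code and not how well the model fits these replicates. CPM are TMM-scaled. Totals of 9098758 to 58364735 counts per library set the precision, and intervals are at 95%. The alternatives were DESeq2 1.42.0 (its test and its size factors), library totals, no filter, a fold threshold, organelle genes left out, the compared groups alone, a replicate block and each library left out.

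All 9 members are given. From each related list of more than 4 genes, up to 4 with the smallest adjusted p against E0 are given with values, and markers of other tissues mainly by counts and sums. The genes most like a member are the 3 closest outside the 9 members. Members and lists were chosen with earlier results of these data known. Gene positions, microRNAs, sites and promoters come from RefSeq on TAIR10.1, and 32548 of 32833 locus codes matched. The labels name no batch.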

Additional observations from a re-analysis of the deposited data

Results flagged for a closer look

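The rise of *ATHB8* on EA over E0 differed between the time points. The log2 fold change was 2.56 at 10 d and 3.43 at 5 d, a difference of −0.866 that passed the interaction test of edgeR's quasi-likelihood fit (adjusted p = 0.015, n = 3 libraries per group). Its level on E0 was higher at 10 d than at 5 d, whereas its levels on EA overlapped.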

How the results depend on the processing

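No called value of a member changed direction under any alternative. Apart from settings that left out 1 library, 850 of the values kept their side of the threshold, 13 passed it and 20 no longer did. When 1 library was left out, 1748 kept their side, 16 passed and 18 no longer did. The replicate letters of the labels are not stated to mark a shared batch. Over 45 same-letter pairs of libraries from different groups, deviations correlated at −0.30 to 0.73 with a median of 0.0185, and 15 were over 0.1. In none of the group pairs compared directly were all 3 over 0.1, so the letters were not taken as a pairing. All 3 were over 0.1 between EA 10d and ET 5d (0.499, 0.258 and 0.728), which share no contrast. They also were between E0 10d and ET 5d (0.145, 0.310 and 0.113), which both enter the change of the ET effect between days. No member was called in that contrast with the replicate block either. With the replicate block, the members higher on ET than on EA at 5 d were 1 instead of 0 (*ZPR2*, adjusted p = 0.0435), and *ZPR3* between the inducers at 5 d and *ATHB15* between days on EA and on E0 also passed the threshold. When calls also had to change at least 2-fold, 4 instead of 7 members were lower on ET than on EA at 10 d, 0, 1 and 0 instead of 2 were higher at 10 d than at 5 d on ET, EA and E0, and 0 instead of 1 was called in the change of the EA effect. With the compared groups alone, these were 4 for ET against EA at 10 d, 1 between days on ET and 0 on EA. When 1 library was left out, the members lower on ET than on E0 at 10 d were 0 to 1, those higher at 10 d than at 5 d were 1 to 3 on ET and 0 to 2 on EA, and those called in the change of the EA effect were 1 to 2. Over all genes, the 2-fold threshold left 2172 instead of 4232 higher calls at 10 d and 3004 instead of 5604 at 5 d for ET against E0, 2462 instead of 5700 and 1958 instead of 4462 for EA against E0, and 1578 instead of 3392 lower calls at 10 d for ET against EA, with 3113 instead of 4722 higher and 2278 instead of 3862 lower at 5 d. Lower calls between days were then 790 instead of 2007 on ET, 719 instead of 1225 on EA and 766 instead of 1672 on E0. With the compared groups alone, 3560 instead of 5700 genes were higher on EA than on E0 at 10 d, 2765 instead of 4151 were higher and 1782 instead of 3392 lower on ET than on EA at 10 d, and between days 1403 instead of 2824 were higher and 780 instead of 2007 lower on ET, 918 instead of 1847 and 491 instead of 1225 on EA, and 2749 instead of 1672 lower on E0. Scaling by library totals gave 5312 instead of 3392 lower calls on ET than on EA at 10 d. Leaving out 1 library brought the lower calls between days as low as 1053 on ET, 620 on EA and 959 on E0, and the higher ones to 1087 on EA and 1579 on E0. DESeq2 gave 1637 instead of 1075 lower calls in the change of the EA effect, and leaving out 1 library brought the higher ones to 636 instead of 999 and the lower ones to 667. Depth limited *ZPR2* most, whose counts were 0 to 26.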
